A study of Mus musculus with 10 samples.

Results

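The cytosolic ribosomal protein (RP) genes encode the proteins that, with ribosomal RNA, form the small and the large subunit of the cytoplasmic ribosome. By convention, names in Rps denote proteins of the small subunit and names in Rpl those of the large subunit, while Rplp0, Rplp1 and Rplp2 form the stalk that recruits elongation factors. Because a ribosome holds about equal amounts of its proteins, cells keep the mRNAs of these genes abundant and adjust them together, and growing or dividing cells make more ribosomes than resting ones. Most of these mRNAs begin with a run of pyrimidines, the 5′ terminal oligopyrimidine (5′TOP) tract, through which the kinase mTOR and the RNA-binding protein Larp1 control their translation. Members were taken by name from the protein-coding genes of the deposited table, with a mean over all lungs of at least 0.5 FPKM (fragments scaled to gene length and to a size set for each library). Of 83 matching names, 80 passed, out of 54532 genes in the table and 15388 with that mean that entered the tests. The mean level therefore chose the members, and levels are given as a description. The values of both groups entered that mean, and the difference between the groups was not part of the rule.

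The RNA came from whole lungs of wild-type C57/BL6 pups, male or female, collected at P14. In the IncPBF group (increased pulmonary blood flow, 5 lungs) a needle was passed from the abdominal aorta into the inferior vena cava at P7, which leaves a shunt that sends more blood through the lung. In the sham group (5 lungs) the abdomen was opened at P7 and the vessels were left intact. The comparison asks which genes differ in the growing lung 7 days after the shunt was made. The lungs held 16103423 to 20318525 fragments on genes. Neither litter, day of surgery nor library batch was given, so p-values measure the spread between these lungs. Whole lung mixes cell types, and a change in cell number and in RNA per cell cannot be told apart. Markers of alveolar, endothelial, mesenchymal and blood cells were all detected, and the summed FPKM of 5 alveolar type 2 markers, Sftpc among them, ran from 10825 to 16334.

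Some lungs stood apart. Xist, expressed from the inactive X chromosome of females, was at 52.4 to 66.5 FPKM in IncPBF lungs 2 to 5 and at most 0.0770 FPKM in the other 6 lungs, and the Y-linked Ddx3y was at 18.6 FPKM in IncPBF lung 1 and 21.8 to 24.6 FPKM in the sham lungs. By these genes the sham group held lungs of 1 sex and the IncPBF group 4 lungs of the other sex, so sex and shunt can be separated only through IncPBF lung 1. Sham lungs 1 and 5 were the lowest of the 10 for most RP genes. Results are therefore also given without them, a choice made after their values were seen.

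RP mRNAs were abundant. The median RP gene had a mean level of 112 FPKM, and 46 of the 80 lay at or above 100 FPKM. The middle of the range was broad, from 37.4 FPKM at the tenth percentile to 315 FPKM at the ninetieth. The highest levels belonged to Rplp1 (784 FPKM over the 10 lungs), Rps3a1 (658 FPKM), Rps15 (484 FPKM), Rplp0 (455 FPKM) and Rps4x (396 FPKM). The lowest belonged to Rpl24 (1.16 FPKM), Rps10 (1.61 FPKM), Rpl13a (7.93 FPKM), the paralog Rpl22l1 (15.4 FPKM) and Rpl21 (16.6 FPKM). Rpl24, Rps10 and Rpl13a were also the members nearest above the threshold. The 3 names just below it were Rpl39l (0.103 FPKM, at most 6 fragments in a lung), Rpl3l (0.0486 FPKM, at most 3 fragments) and Rpl10l (listed at 0 in every lung). Rps4l is annotated as a pseudogene and was not a candidate.

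These levels do not measure the mRNAs cleanly. The table divides by the length of all annotated exons of a gene, which was a median of 1775.5 bases for the RP genes against 882 bases for their principal transcripts. RP genes also have many processed copies in the genome. A median of 44.3% of the 50-base windows of an RP gene occurred in another annotated gene as well, and up to 98.7% in Rps27. In 16 members at least 80% of the windows were shared. Those 16 had a median level of 105 FPKM and a median log2 fold change of 0.27, and the 11 members with under 20% shared had 71.3 FPKM and 0.25. A further 286 rows of the table were pseudogenes named after RP genes, and held 4.16% to 4.55% as many fragments as the members in each lung. Any copies under other names are not in that count, so it does not bound the signal on copies. For 67 members every lung held at least 1000 fragments, while Rpl24 held as few as 9.

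In the IncPBF lungs RP mRNAs were slightly higher. The log2 fold change (IncPBF minus sham, on log2(FPKM + 0.1)) was above 0 for 80 of 80 members, against 52.1% of all genes tested, and ran from 0.09 for Rpl10 to 0.56 for Rpl38. The median over members was 0.27, a 1.21-fold higher level, and the median over all genes was 0.01. By limma with Benjamini-Hochberg adjustment over all 15388 genes, 26 members rose and 0 fell at an adjusted p under 0.05, which is 32.5% of the members (34 rose and 0 fell by limma-voom on the recovered fragments), where 16.1% of all genes were called higher and 16.2% lower (32.3% in either direction). The other 54 did not pass. At an unadjusted p under 0.05 the count was 56 members higher, or 70%, beside 21.7% of all genes, and 0 lower. With an equal total per lung in place of the authors' scaling, 53 members and 23.1% of all genes were called higher, at a median of 0.09 over all genes. The 5 IncPBF lungs lay above all 5 sham lungs for 15 members, or 18.8%, beside 12% of all genes.

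The differences were modest in size. No member reached a log2 fold change of 1, and 6 reached 0.5. The 26 that rose had a median of 0.35, and all genes called in either direction had a median absolute log2 fold change of 0.41. The median standard error of a member was 0.10. Without sham lungs 1 and 5 the median was 0.11 and 76 of 80 members were above 0, and 5 members (6.25%) were called higher beside 10.4% of all genes, so that the share of members called was then below that of all genes. With log2 Xist FPKM as a covariate, 0 members passed by limma (4 higher at an unadjusted p under 0.05), and 2.13% of all genes were called higher (4.82% in either direction). With the 6 Ddx3y-positive lungs 0 passed (5 unadjusted), beside 0.273% of all genes. In that fit a lone IncPBF lung faces 5 sham lungs and is assumed to vary as they do, so it could call few genes. The medians of the members in those fits were 0.23 and 0.25.

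**Figure D1:**
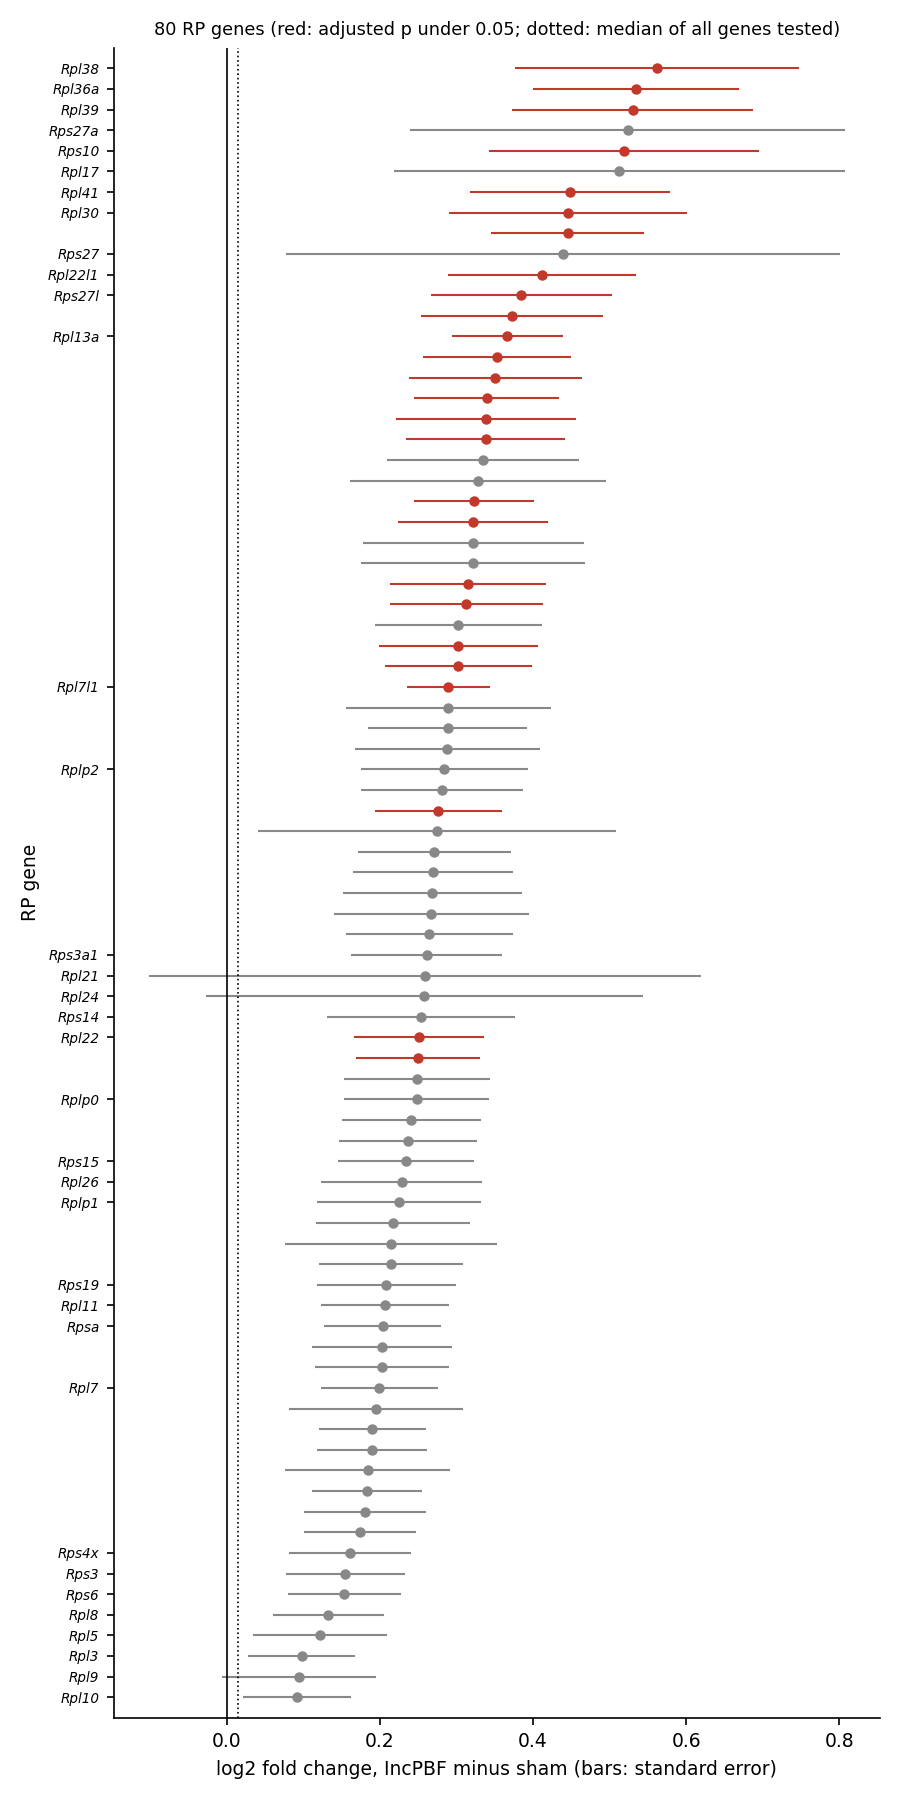
Log2 fold change, IncPBF minus sham, of each of the 80 RP genes, with bars for the standard error from limma and names for 35 of them. Red points have an adjusted p under 0.05 (26 genes), grey points do not, and the dotted line is the median of all genes tested, 0.01. Every point lies to the right of 0, from Rpl10 (0.09) to Rpl38 (0.56).

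**Figure D2:**
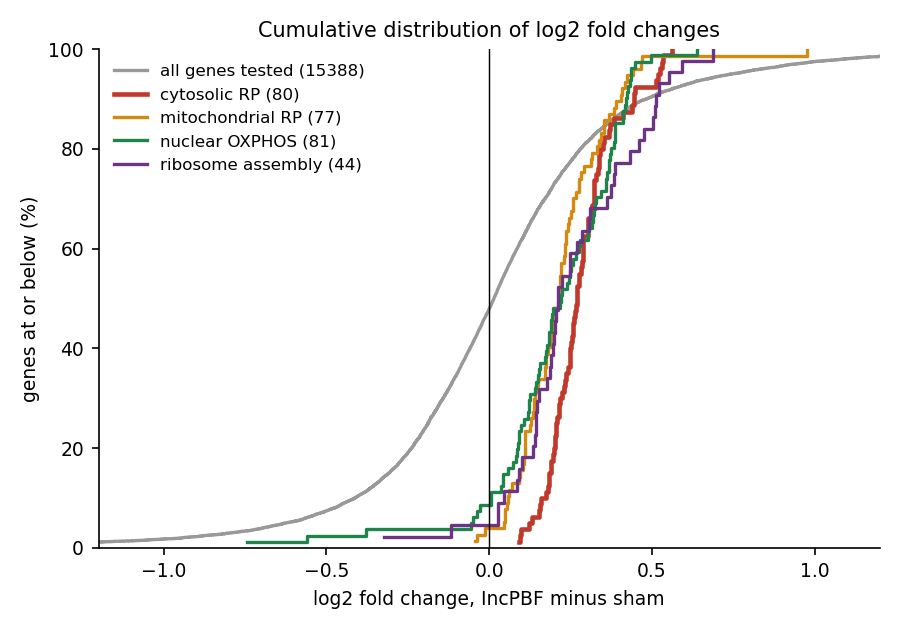
Cumulative percentage of genes at or below each log2 fold change, IncPBF minus sham, for the RP genes and other lists. The RP curve (red) begins at 0.09 and is steep around its median of 0.27, while the curve of all 15388 genes tested (grey) crosses 0 near its middle.

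As a share of all fragments on genes, the 80 RP genes took 2.32%, 2.32%, 2.18%, 2.41% and 2.36% in IncPBF lungs 1 to 5. In sham lungs 1 to 5 they took 1.61%, 1.97%, 2.19%, 2.05% and 1.55%. The group means were 2.32% ± 0.0829 (SD, n = 5) and 1.87% ± 0.279 (SD, n = 5), a difference of 0.443 percentage points and a ratio of 1.24. Sham lung 3 lay just above IncPBF lung 3, so the groups overlapped. Sham lungs 1 and 5 lay far below the rest of their group, and without them the difference was 0.248 points. Without stalk genes and paralogs, the 31 small-subunit genes took 1.00% ± 0.0441 against 0.808% ± 0.122, and the 43 large-subunit genes took 1.15% ± 0.0382 against 0.934% ± 0.138 (SD, n = 5 each).

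**Figure D3:**
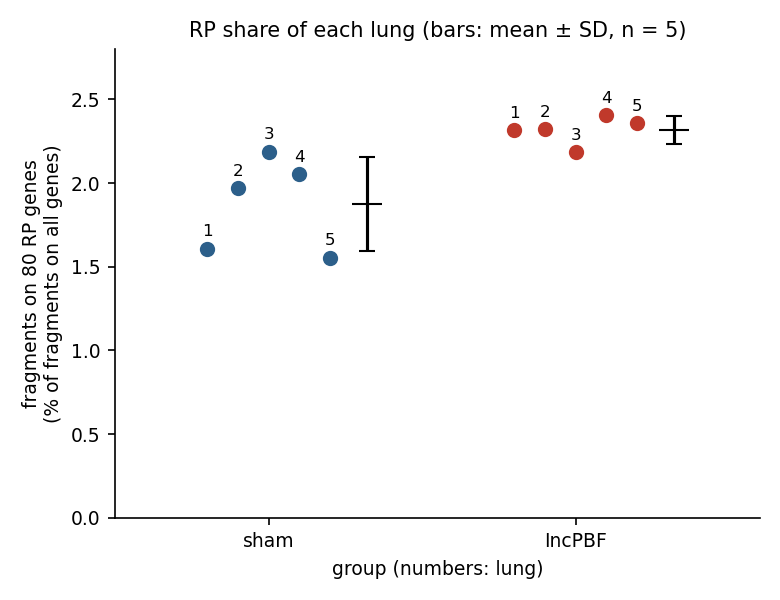
Share of each lung's fragments on genes that fell on the 80 RP genes, in percent, with 1 numbered point per lung and bars for the mean ± SD (n = 5). The IncPBF lungs sit between 2.18% and 2.41%, while the sham lungs spread from 1.55% (lung 5) to 2.19% (lung 3).

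The spread was in the sham group. Sham lung 5 was the lowest of the 10 lungs for 41 members and sham lung 1 for 36. The highest value was in IncPBF lung 5 for 36 members and in IncPBF lung 4 for 25. The median coefficient of variation of a member was 15.1% among sham lungs and 6.64% among IncPBF lungs, and it was larger among the sham lungs for 75 of 80 members. Over all genes tested the medians were 11.8% and 9.12%, and 66.1% of genes varied more among the sham lungs.

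Among the members with the largest log2 fold changes were several small basic proteins of the large subunit. Rpl38, which is needed for the translation of certain Hox mRNAs in the mouse embryo, was at 65.0, 63.7, 77.6, 78.1 and 65.5 FPKM in IncPBF lungs 1 to 5 and at 28.2, 47.9, 60.5, 62.1 and 46.1 FPKM in sham lungs 1 to 5. The lowest IncPBF lung exceeded the highest sham lung. The means were 70.0 ± 7.21 and 48.9 ± 13.7 FPKM, and the log2 fold change was 0.56 (SE 0.18, adjusted p = 0.0378 by limma). The exact two-sided permutation p on its FPKM, unadjusted, was 0.00794, the smallest that 5 lungs against 5 can give. Any gene without overlap has this p, so it restates the lack of overlap. Of all genes, 12% lay wholly higher and 11.2% wholly lower in the IncPBF lungs. Rpl39, a very short protein at the exit tunnel of the ribosome, was at 75.4, 85.9, 77.4, 94.7 and 83.7 FPKM in the IncPBF lungs and at 43.3, 65.2, 72.2, 72.0 and 43.0 FPKM in the sham lungs. These groups did not overlap either, with a log2 fold change of 0.53 (SE 0.16, adjusted p = 0.0246 by limma).

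Rpl36a, on the X chromosome like Rpl39, was at 59.1, 60.6, 53.9, 67.6 and 61.0 FPKM in the IncPBF lungs and at 33.4, 43.9, 50.8, 51.7 and 32.3 FPKM in the sham lungs, without overlap (log2 fold change 0.53, SE 0.13, adjusted p = 0.0115 by limma). For these X-linked genes, too, sex and shunt can be separated only through IncPBF lung 1. Over the alternative fits the log2 fold change ran from 0.31 to 0.61 for Rpl36a and from 0.25 to 0.61 for Rpl39. Rpl41, whose product is among the shortest proteins known, was at 296, 324, 307, 348 and 282 FPKM against 186, 253, 289, 250 and 179 FPKM. Sham lung 3 reached above IncPBF lung 5, and the log2 fold change was 0.45 (SE 0.13, adjusted p = 0.0225 by limma). Rpl30, which can bind its own RNA in yeast, rose by 0.45 (SE 0.16, adjusted p = 0.0476 by limma) with overlapping groups, with 45.9 to 59.0 FPKM under IncPBF and 27.6 to 51.5 FPKM under sham surgery. Rps10 rose by 0.52 (SE 0.18, adjusted p = 0.0424 by limma), but on 37 to 92 fragments in a lung, and with overlap.

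Precision did not follow the size of the change. The smallest adjusted p of the group belonged to Rpl7l1, a relative of Rpl7 with a role in making the large subunit. It was at 22.6, 22.5, 24.0, 22.0 and 23.4 FPKM in the IncPBF lungs and at 17.6, 19.2, 18.3, 20.7 and 17.9 FPKM in the sham lungs, without overlap, at a log2 fold change of 0.29 (SE 0.05, adjusted p = 0.00231 by limma). Rpl13a, known for a second role in silencing inflammatory mRNAs, was at 9.20, 9.77, 8.83, 8.14 and 8.73 FPKM against 6.83, 6.53, 6.89, 8.02 and 6.33 FPKM. Its groups did not overlap, and its row rose by 0.37 (SE 0.07, adjusted p = 0.00318 by limma). That row held 233 to 387 fragments in a lung, and 57.4% of the windows of Rpl13a occur in other genes. Whether all of this signal is Rpl13a mRNA was not tested. Rpl27 (log2 fold change 0.45, adjusted p = 0.00618) and Rpl10a (0.32, adjusted p = 0.00918), both of the large subunit and without overlap, came next by limma and were named after their values were seen. Rpl10a was nearly level within the IncPBF group, at 122 ± 2.07 FPKM, and at 98.5 ± 12.1 FPKM in the sham group.

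**Figure D4:**
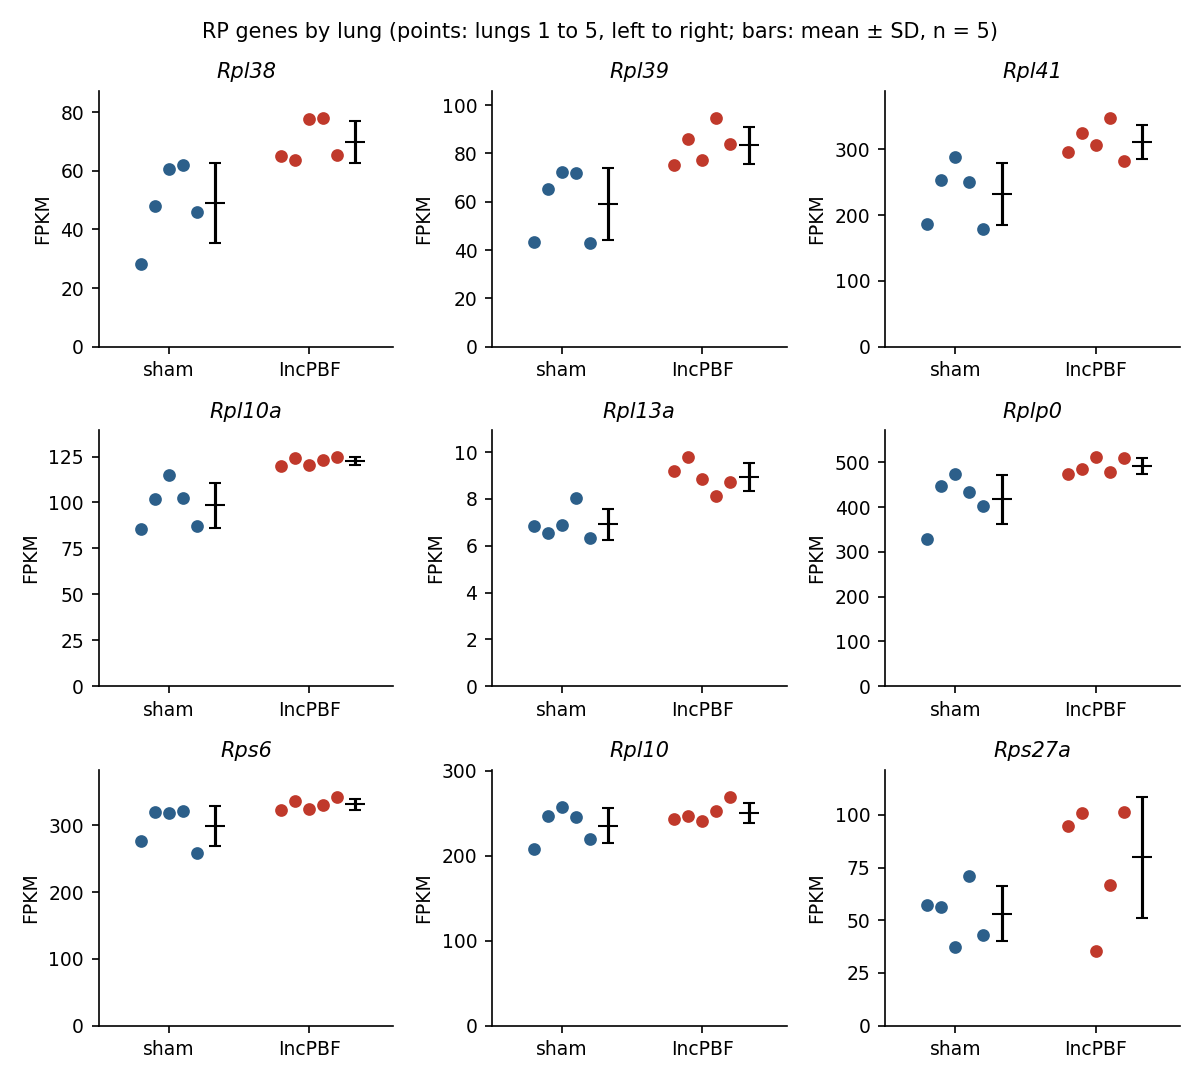
FPKM of 9 RP genes, with 1 point per lung (lungs 1 to 5 from left to right in each group) and bars for the mean ± SD (n = 5). Rpl38, Rpl39, Rpl10a, Rpl13a and Rps6 show no overlap of the groups, and Rps27a varies from 35.3 to 101 FPKM among the IncPBF lungs. Rpl10 overlaps in part, with sham lungs 1 and 5 below every IncPBF lung.

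The members with the smallest changes were, in rising order, Rpl10 (log2 fold change 0.09), Rpl9 (0.10), Rpl3 (0.10), Rpl5 (0.12), Rpl8 (0.13), Rps6 (0.15), Rps3 (0.16) and Rps4x (0.16), and none of these 8 passed. Rpl10, which is added late as the large subunit becomes active, was at 243, 246, 241, 252 and 269 FPKM in the IncPBF lungs and at 208, 247, 257, 246 and 219.5 FPKM in the sham lungs. Those values overlapped broadly (SE 0.07, adjusted p = 0.349 by limma). Rpl3, a core protein near the catalytic centre, ran from 141 to 179 FPKM and from 136 to 156 FPKM (SE 0.07, adjusted p = 0.309). Rps6, the substrate of the S6 kinases, was at 323, 336, 324, 331 and 342 FPKM against 276, 320, 319, 321 and 259 FPKM. Every IncPBF value lay above every sham value, by a margin of under 2 FPKM at the nearest pair, and limma gave an adjusted p of 0.135.

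By position in the ribosome, the groups had near-equal medians. Beside 16.1% of all genes called higher, 10 of 31 small-subunit genes rose, with a median log2 fold change of 0.27 and a range of 0.15 to 0.52. Of 43 large-subunit genes 13 rose, with a median of 0.26 and a range of 0.09 to 0.56. None of the 3 stalk genes passed by limma (2 at an unadjusted p under 0.05). Rplp0, often used as a reference gene in PCR, was at 474, 485, 511, 479 and 510 FPKM in the IncPBF lungs and at 330, 446, 475, 433 and 402 FPKM in the sham lungs. Sham lung 3 overlapped with IncPBF lung 1, and the log2 fold change was 0.25 (SE 0.09, adjusted p = 0.0655 by limma). Rplp1 was at 842 ± 43.3 against 726 ± 109 FPKM (0.23, adjusted p = 0.133) and Rplp2 at 85.8 ± 8.21 against 70.9 ± 11.2 FPKM (0.28, adjusted p = 0.0673). Thus all 3 stalk values were above 0 and within the range of the other members.

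Several other members with known roles outside the ribosome or in disease did not pass. Rpl5 and Rpl11 bind Mdm2 and so stabilise p53 when ribosome assembly fails, and they had log2 fold changes of 0.12 (SE 0.09, adjusted p = 0.313 by limma) and 0.21 (SE 0.08, adjusted p = 0.0810). Mdm2 itself was at 13.1 ± 0.586 and 12.9 ± 0.941 FPKM (adjusted p = 0.820). Rpl26, which binds p53 mRNA, was at 0.23 (adjusted p = 0.118). Rps19 and Rps14, whose loss causes a failure of red cell formation, were at 0.21 (adjusted p = 0.0997) and 0.25 (adjusted p = 0.137). Rpsa, also known as a laminin receptor, was at 0.20 (adjusted p = 0.0614), Rps3, with a role in DNA repair, at 0.16 (adjusted p = 0.151), and Rpl7 at 0.20 without overlap of the groups (adjusted p = 0.0665).

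All 3 members that are paralogs of another RP gene rose. Beside Rpl7l1, these were Rps27l, a p53 target, and Rpl22l1, a relative of Rpl22 that can act against it in blood cell development. Rps27l was at 56.6, 59.2, 53.9, 61.1 and 62.1 FPKM in the IncPBF lungs and at 34.3, 52.4, 46.9, 54.9 and 38.9 FPKM in the sham lungs. Only sham lung 4 reached above an IncPBF lung, and the log2 fold change was 0.38 (SE 0.12, adjusted p = 0.0286 by limma). Rpl22l1 was at 17.5 ± 1.58 against 13.3 ± 2.46 FPKM (0.41, SE 0.12, adjusted p = 0.0246). Its partner Rpl22 also rose, by 0.25 (SE 0.08, adjusted p = 0.0421), while Rpl7 did not pass. With 3 genes, the count beside 16.1% of all genes called higher is a description. Of the 4 members on the X chromosome, Rpl36a and Rpl39 rose, and Rps4x (0.16, adjusted p = 0.147) and Rpl10 did not pass.

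The members moved together from lung to lung within the groups. After the group means were subtracted, the median correlation over 3160 pairs of members across the 10 lungs was 0.761, and 97.3% of pairs were above 0. The 10 lungs and their scaling are shared by all pairs, so this is a description. The median log2 deviation of the members had an SD of 0.0584 among IncPBF lungs and 0.200 among sham lungs, where lungs 1 and 5 were lowest. How much of the correlation those lungs carry was not tested. The lists compared here also differ in FPKM level. The same median was 0.486 for nuclear genes of oxidative phosphorylation, 0.462 for other 5′TOP genes, 0.350 for mitochondrial RP genes and 0.0971 for ribosome assembly factors. Rpl27a (median r of 0.887 with the other members) and Rps14 (0.883) followed the others most closely, chosen by this measure. Rpl7a (0.0577), Rpl21 (0.10), Rps27a (0.173), Rpl13a (0.267) and Rpl35a (0.283) followed them least.

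Several members had an unsteady signal. Rps27a, which encodes ubiquitin fused to a small-subunit protein, was at 94.7, 101, 35.3, 66.8 and 101 FPKM in the IncPBF lungs and at 57.2, 56.5, 37.5, 70.9 and 43.1 FPKM in the sham lungs. IncPBF lung 3 was the lowest of all, and the log2 fold change of 0.52 had an SE of 0.28 and an adjusted p of 0.183 by limma. Rpl17 was at 173, 110, 94.6, 118 and 172 FPKM against 54.6, 145, 98.0, 137 and 58.3 FPKM (0.51, SE 0.29, adjusted p = 0.208). Rpl21 ran from 10.1 to 25.5 FPKM against 6.57 to 23.7 FPKM (0.26, SE 0.36, adjusted p = 0.619). Rpl7a ran from 27.6 to 56.4 FPKM against 24.3 to 55.8 FPKM (0.27, SE 0.23, adjusted p = 0.398). Of the windows of Rpl7a, 81.2% were shared with other genes, 120 in number, and Rpl21 shared 26.2% of its windows with 82 genes. Any part of this sharing in the scatter was not tested.

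Rps27 gave the clearest case of a gene that cannot be read alone. It was at 103, 110, 65.3, 98.1 and 110 FPKM in the IncPBF lungs and at 68.2, 98.1, 99.6, 108 and 24.2 FPKM in the sham lungs (0.44, SE 0.36, adjusted p = 0.384 by limma). Its retrogene Rps27rt was at 90.3, 131, 190, 157 and 158 FPKM against 57.8, 95.8, 102, 135 and 233 FPKM (0.33, SE 0.32, adjusted p = 0.465). Sham lung 5 was thus the lowest lung for Rps27 and the highest for Rps27rt, and IncPBF lung 3 the lowest of its group for Rps27 and the highest for Rps27rt. As 98.7% of the windows of Rps27 occur in other genes, its values and those of its copies are uncertain.

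Short and less abundant RP genes tended to larger changes. Over the 80 members the log2 fold change had a Spearman correlation of −0.31 with the table's gene length, −0.38 with the length of the principal transcript, −0.42 with the mean FPKM, −0.09 with GC content and −0.08 with the share of windows found elsewhere. These members share the same 10 lungs, and FPKM enters both the level and the change. The 21 members with a table length under 1300 bases had a median of 0.31 and 8 of them rose. The 25 of at least 2500 bases had a median of 0.22 and 5 rose, beside 16.1% of all genes called higher. Length went with the change over all genes too (Spearman −0.21), with medians of 0.14, 0.07, 0.02, −0.02 and −0.08 in 5 equal classes of all genes tested, from the shortest to the longest. Of the members, 36 fell in the shortest class and 29 in the next. After a correction of each lung for gene length the median of the members was 0.19 and 17 rose, beside 15.1% of all genes. The 295 other genes of at least 100 FPKM had a median of −0.02, and 47.1% of them were above 0.

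The 5′TOP tract was looked for at the annotated starts in RefSeq (GRCm38.p6), which held 60 of the 80 members. A C at the start followed by at least 4 bases that are each C or T was found in 13 of these 60 (21.7%), beside 3.01% of 27025 genes with an entry. Within 5 bases of the start on either side it was found in 29 (48.3%), beside 21.2% of all. Beside 16.1% of all genes called higher, 7 of the 13 genes with the tract at the start rose, with a median log2 fold change of 0.32. Of the 29 with it within 5 bases, which include those 13, 14 rose (median 0.30). Of the 31 with none within 5 bases 8 rose (median 0.25), and of the 20 without an entry 4 rose (median 0.27). Annotated starts can miss the used start by some bases, and whether the tract goes with the change was not tested. Shown here, to set the motif beside the values, are 10 bases before and 20 from the start on, 5′ to 3′ on the gene's strand, with the tract in capitals. The first 5 carry it at the start, Rpl22l1 carries it just after, and Rpl36a and Rpl10, with among the largest and the smallest changes, have none.
Rpl38 (chr11:114668570-114668599, plus strand): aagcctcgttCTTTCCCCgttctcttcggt
Rps10 (chr17:27635225-27635254, minus strand): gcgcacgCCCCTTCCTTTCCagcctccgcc
Rps27 (chr3:90213629-90213658, minus strand): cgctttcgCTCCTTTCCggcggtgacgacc
Rplp2 (chr7:141447641-141447670, plus strand): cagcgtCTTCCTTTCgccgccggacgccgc
Rps6 (chr4:86857348-86857377, minus strand): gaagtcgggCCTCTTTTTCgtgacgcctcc
Rpl22l1 (chr3:28805498-28805527, plus strand): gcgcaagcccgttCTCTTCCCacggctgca
Rpl36a (chrX:134585644-134585673, plus strand): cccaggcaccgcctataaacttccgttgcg
Rpl10 (chrX:74270806-74270835, plus strand): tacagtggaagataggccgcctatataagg

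In the 300 bases from 250 before to 50 after the start, on either strand, the core CCGGAAG of ETS-family factors was found in 25 of the 60 members (41.7%) and in 9.93% of all genes. The element AAGATGGC of the factor YY1 was found in 6 members (10%) and 3.19% of all genes, and TATAAA in 7 (11.7%) and 15.7%. These are matches of letters, and some may lie in the same stretch.

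The rest of the machinery was followed in lists of other genes, to be read beside the 16.1% of all genes called higher and 16.2% called lower, and, without sham lungs 1 and 5, the 20.1% called in either direction. Of 4 tested ribosomal proteins that the name rule leaves out, none passed by limma (2 at an unadjusted p under 0.05, and 1 by limma-voom), and their median was 0.28. These included Fau, made as a fusion with a ubiquitin-like protein (338 ± 20.6 against 284 ± 43.1 FPKM, 0.27, adjusted p = 0.0674), and Rack1, a signalling scaffold on the small subunit (0.13, adjusted p = 0.166).

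A list of 20 other genes whose mRNAs carry a 5′TOP tract held translation factors and others, and shared Rack1 with the list above. Of these 20, 6 rose and 2 fell, with a median of 0.12, and 5 were called without sham lungs 1 and 5. The risers included Hnrnpa1, an RNA-binding protein (0.50, SE 0.08, adjusted p = 0.00102 by limma), Npm1, the nucleolar chaperone nucleophosmin (0.39, adjusted p = 0.0041), and Eef1b2, an elongation factor subunit (0.36, adjusted p = 0.00938). Nap1l1, a histone chaperone, fell by 0.25 and Pabpc1, the poly(A)-binding protein, fell by 0.19. The main elongation factors Eef1a1 (0.02, adjusted p = 0.921) and Eef2 (−0.17, adjusted p = 0.160) did not pass. The list therefore did not move one way, unlike the RP genes.

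Of 7 tested host genes of small nucleolar RNAs, whose spliced RNAs are broken down when translation is active, 5 rose and 0 fell, with a median of 0.42, and 2 were called without sham lungs 1 and 5. Gas5 was at 14.5, 15.8, 13.4, 15.8 and 14.5 FPKM in the IncPBF lungs and at 9.54, 9.98, 12.2, 13.7 and 7.82 FPKM in the sham lungs. Sham lung 4 overlapped with IncPBF lung 3, and Gas5 rose by 0.49 (SE 0.13, adjusted p = 0.0140 by limma). The other 4 were Snhg1 (0.48), Snhg6 (0.48), Snhg5 (0.42) and Snhg12 (0.39).

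Many ribosome assembly factors rose. Of 44 tested, 22 rose and 1 fell, 42 were above 0, and the median was 0.21, and without sham lungs 1 and 5 there were 17 called in either direction. Nop58, a core protein of the particles that methylate ribosomal RNA, was at 3.12, 3.75, 3.12, 3.64 and 3.24 FPKM in the IncPBF lungs and at 1.97, 2.25, 1.96, 2.32 and 1.78 FPKM in the sham lungs. There was no overlap (log2 fold change 0.69, SE 0.09, adjusted p = 0.000332 by limma). Its partners Nop56 (0.46) and the methyltransferase Fbl (0.47), Rrp12 (0.59), Gar1 (0.55) of the pseudouridylation particles and the nucleolar GTPase Gnl3 (0.52) rose as well, each without overlap. Sbds, which frees the large subunit from Eif6 late in assembly, fell by 0.32 (SE 0.05, adjusted p = 0.000760). Polr1a, the large subunit of RNA polymerase I, was at 0.15 (adjusted p = 0.121).

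Among 22 regulators around mTOR and Myc, 4 rose and 7 fell, with a median of −0.05. Myc, which drives transcription of ribosome genes, was at 3.69 ± 0.425 against 2.39 ± 0.257 FPKM (0.61, SE 0.10, adjusted p = 0.00104 by limma), and Mycn at 3.83 ± 0.394 against 2.05 ± 0.548 FPKM (0.90, SE 0.16, adjusted p = 0.00189). Deptor, an inhibitor of mTOR, was at 3.67 ± 0.567 against 8.38 ± 1.08 FPKM and fell by 1.17 (adjusted p = 4.71e-05). Sesn1, another inhibitor of this pathway, was at 13.6 ± 1.44 against 26.2 ± 2.66 FPKM and fell by 0.94 (adjusted p = 3.44e-05). Maf1, a repressor of RNA polymerase III, and the translation repressor Eif4ebp2 each fell by 0.37. The subunits of the kinase complex differed in direction, as Mtor fell by 0.31, Mlst8 rose by 0.26 and Rptor did not pass (−0.14, adjusted p = 0.202). Within the sham group, lungs 1 and 5 were highest for Mtor (7.24 and 7.56 FPKM) and Deptor (10.1 and 8.70 FPKM). The same lungs were highest for Sesn1 (28.3 and 29.2 FPKM) and Eif4ebp2 (62.8 and 65.9 FPKM), but not for Maf1. How far these falls depend on those lungs is not given here. Larp1, which binds 5′TOP mRNAs, was level at 17.3 FPKM in both groups (0.00, adjusted p = 0.976).

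The mitochondrial RP genes, which serve a separate ribosome, were also higher. Of 77 tested, 32 rose and 0 fell, 74 were above 0, and the median was 0.22. Mrps6 was at 10.6 ± 0.609 against 5.36 ± 0.818 FPKM (0.98, SE 0.10, adjusted p = 5.46e-05 by limma), beyond any cytosolic RP gene, and next came Mrpl17 (0.47), Mrpl13 (0.47) and Mrps10 (0.44). Of 81 nuclear genes of oxidative phosphorylation 35 rose and 2 fell, with a median of 0.22, and among those called the largest differences were in Cox6a2, a muscle form of a complex IV subunit, which fell by 0.74, and in Cox7c (0.45), Ndufa5 (0.44) and Atp5mpl (0.43), which rose. Without sham lungs 1 and 5, 13 of the 77 mitochondrial RP genes and 17 of the 81 genes of oxidative phosphorylation were called, beside 20.1% of all genes, which is about the same share. The cytosolic RP genes had the highest of these 3 medians and, at 0.09, the highest minimum.

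Lung by lung, the median log2 deviation of the RP genes from the mean of the 10 lungs was 0.12, 0.14, 0.04, 0.18 and 0.19 in IncPBF lungs 1 to 5 and −0.35, −0.00, 0.07, −0.01 and −0.33 in sham lungs 1 to 5. That is, 3 sham lungs were near the IncPBF lungs and 2 were far below. The mitochondrial RP genes did not overlap, at 0.07 to 0.19 against −0.25 to −0.02, nor did the assembly factors, at 0.10 to 0.14 against −0.17 to −0.05. The genes of oxidative phosphorylation were at 0.06 to 0.22 against −0.29 to −0.02. Sham lungs 1 and 5 were the lowest for these 3 lists too. They were at −0.25 and −0.17 for mitochondrial RP, −0.29 and −0.22 for oxidative phosphorylation and −0.17 and −0.15 for assembly. The median over all genes tested stayed between −0.01 and 0.02. The marker lists, too, are to be read beside the 16.1% of all genes called higher and 16.2% called lower. Among them, 5 of 5 proliferation markers rose, with summed FPKM of 33.4 to 40.9 against 12.6 to 21.9. Their median deviation was lowest in sham lungs 2 (−1.01) and 5 (−0.82) and at −0.56 in sham lung 1. Markers of alveolar type 1 cells fell, 5 of 5, with sums of 1123 to 1189 against 1397 to 1840 FPKM. Of 5 alveolar type 2 markers 3 fell, with a median of −0.56 and sums of 10825 to 13422 against 13093 to 16334 FPKM. Of 5 endothelial markers 3 fell, with a median of −0.37 and sums of 892 to 948 against 926 to 1201 FPKM. In sham lungs 1 to 5 the median deviation of the alveolar type 1 markers was 0.21, 0.37, −0.02, 0.16 and 0.32. That of the endothelial markers was 0.27, 0.28, −0.07, 0.06 and 0.31. Of 5 smooth muscle and myofibroblast markers 3 rose, with a median of 0.74 and sums of 286 to 539 against 104 to 225 FPKM, without overlap. Of 5 fibroblast markers 2 rose and 1 fell, and none of the 5 macrophage or 5 ciliated-cell markers passed by limma (1 of each list at an unadjusted p under 0.05). Of 5 erythroid genes 3 fell, and their sum ran from 251 to 1927 against 1458 to 2442 FPKM. None of 7 lymphocyte genes passed by limma (1 at an unadjusted p under 0.05), at sums of 30.6 to 37.6 against 34.9 to 45.7 FPKM. Ciliated-cell markers were lowest in sham lung 5, by a median deviation of −2.92. The part of these cells in the RP difference was not tested.

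**Figure D5:**
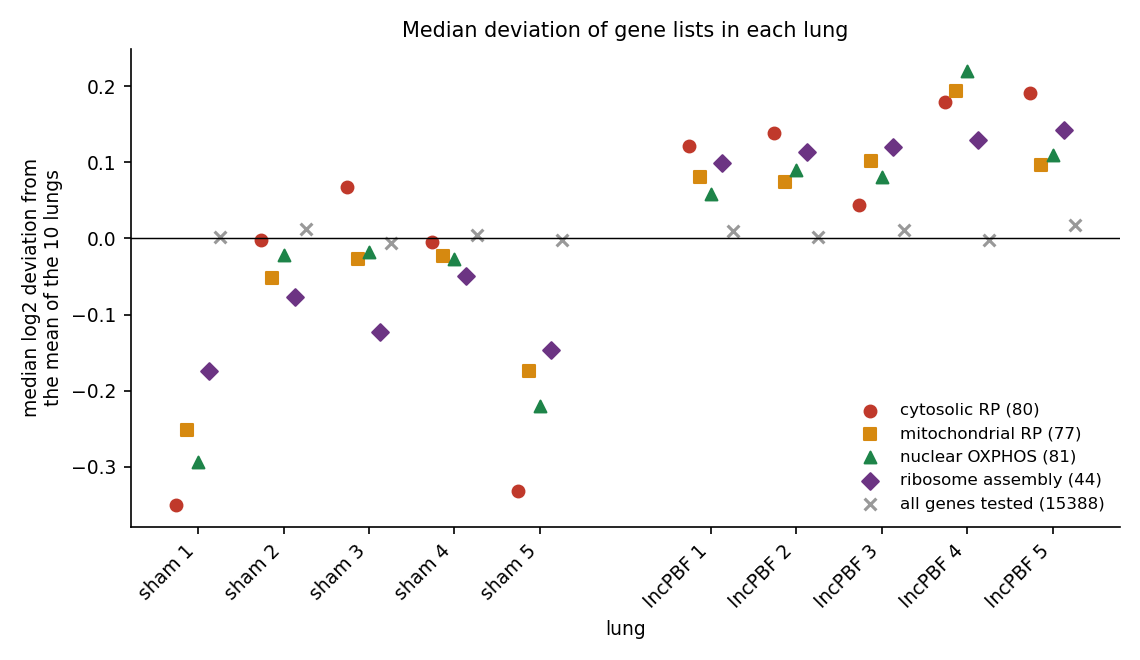
Median log2 deviation of each gene list from the mean of the 10 lungs, for each lung. All genes tested (grey crosses) stay between −0.01 and 0.02, and the RP genes (red) drop to −0.35 and −0.33 in sham lungs 1 and 5. The mitochondrial RP genes (orange) and the genes of oxidative phosphorylation (green) are also lowest in sham lungs 1 and 5. The assembly factors (purple) are below 0 in all sham lungs.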

How the data were processed

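Total RNA of P14 lungs was made into NEBNext libraries and sequenced on a NovaSeq instrument (column kit in the methods, Trizol in the labels). The authors deposited FPKM per gene with the gene length. Bowtie 0.12.2 and the builds GRCm38, mm10 and hg38 stand in the submitters' processing notes, and the counting tool is not given in the sources used here. Of the table's genes, 54409 are in GENCODE M21 (GRCm38), 98.3% with the same coordinates, and for 98.0% the length equalled the union of exons. In the table the IncPBF columns bear a short name that the titles do not use, and they were assigned because the other 5 are named sham. FPKM times length were whole multiples of 1 step in 100% of values above 0 (within 0.01 of a step, and in proportion above 100 steps), so fragments were recovered, and 1 fragment on 1 kb was worth 0.0482 to 0.0580 FPKM. The library size implied by that step was not the total of fragments on genes. It was above the total in every IncPBF lung and sham lungs 3 and 4, and below it in sham lungs 1, 2 and 5. In IncPBF lung 4 it was 1.73e+07 against 1.61e+07, and in sham lung 5 1.74e+07 against 1.82e+07.

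Genes with a mean of at least 0.5 FPKM were fitted on log2(FPKM + 0.1) with limma 3.58.1 (lmFit, eBayes with trend) in R 4.3.3, without covariates, and p-values were Benjamini-Hochberg adjusted over all genes tested. The script was tested on simulated data. Fold changes on this scale understate those of low genes. Means are given ± SD. Sharing of 50-base windows used GENCODE transcripts, starts came from RefSeq, and Python 3.11.15, pandas 2.3.3 and matplotlib 3.10.9 were used. The members and gene lists were chosen with earlier results of these data known. Named are the 8 largest and 8 smallest changes, the 5 highest and 5 lowest levels, the 3 names on each side of the level threshold, preset members with a known role or paralog, up to 4 called genes per other list and those whose role is described, and Xist and Ddx3y. Members named for co-variation, Rpl27 and Rpl10a were added after their values were seen. Values of some genes are not reported here.

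Alternatives were the pseudocount, the filter, the scaling, the replicate block, no trend, no genes on X and Y, sex as a covariate or restriction, a length correction, limma-voom on recovered fragments and each lung left out. Added after the data were seen were a length and GC correction (15373 genes with a GC value), the same with the block, and the fit without sham lungs 1 and 5.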

Additional observations from a re-analysis of the deposited data

Results flagged for a closer look

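Of 72 groups of 5 lungs checked, 2 held a lung far from the other 4, and chance gives about 1 in 20. In Rps14, IncPBF lung 3 was at 298 FPKM and the other IncPBF lungs at 345 to 359 FPKM. In Rps27, the same lung was at 65.3 FPKM and the others at 98.1 to 110 FPKM, with the copy Rps27rt at its highest IncPBF value there.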

How the results depend on the processing

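Beside the share of all genes called higher in the same fit, the count of 26 members (16.1% of all genes) was 53 with an equal total per lung (23.1%), 54 with quantile normalization (16.6%), 17 with the length correction (15.1%), 7 without a filter on low values (6.77%), 0 with Xist as a covariate (2.13%), 0 in the Ddx3y-positive lungs (0.273%), 5 without sham lungs 1 and 5 (10.4%), and 7 (without IncPBF lung 4, 12.7%) to 53 (without sham lung 3, 16.5%) with 1 lung left out. It was 14 (14%), 8 (13.5%) and 12 (14.1%) without IncPBF lungs 1, 2 and 5, and 10 (13.2%) and 9 (13.5%) without sham lung 1 or 5. Without IncPBF lung 2 or 4 or sham lung 1 or 5, the share of members called, 8.75% to 12.5%, was below that of all genes. Each of those fits has 1 lung fewer, as does the fit that called 53 members, and the cause was not tested. No setting called a member lower, and 76 to 80 members were above 0. The equal total also moved the median of all genes to 0.09 and the median of the members to 0.35. The median of the members was 0.11 without sham lungs 1 and 5 and 0.21 to 0.32 with 1 lung left out. Of the 254 genes in 7 other lists, 116 were called, 5 with Xist as a covariate, 0 in the Ddx3y-positive lungs, 61 without sham lungs 1 and 5, and 79 to 125 with 1 lung left out. The difference in share was 0.822 points by summed FPKM and 0.363 to 0.521 with 1 lung left out. The sign turned for Rpl21 without sham lung 1 (−0.0087, and up to 0.45 with another lung left out), and without sham lungs 1 and 5 for 4 members, Rps27 (−0.091), Rpl9 (−0.055), Rpl24 (−0.041) and Rps12 (−0.0058, named after its value was seen). The deviations of same-numbered lungs were hardly correlated (r from −0.07 to 0.09), and those of differently numbered lungs had r from −0.20 to 0.22. This gave no sign that the numbers pair the lungs. So few lungs cannot exclude that a number marks a litter, a day of surgery or a library batch. With the replicate block 25 members were called. Members under 10 FPKM, Rpl24 and Rps10 above all, rest on few fragments. Of the windows of Rpl24 81.7% occur in other genes, and 51.8% of those of Rps10. Why their counts are low was not tested.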
